A study of Mus musculus with 30 samples.

Results

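The genes described here are 10 genes that mark the atria of the heart: Myl7, Myl4, Mybphl, Sln, Bmp10, Dkk3, Stard10, Gja5, Nr2f2 and Tbx5. They were chosen by name as atrial genes with their levels in these same samples already known, so their levels, their co-variation and their differences between treatments are given as descriptions with no test. All 10 had a row among the 49671 genes of the peptide study and among the 56386 genes of the antibody study. Genes were tested where the mean count over the hearts was 10 or more. In the peptide study 10 of the 10 met this, and with the antibodies 9 did, since Bmp10 had too few counts.

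RNA of the left ventricle of male wild type C57BL6J mice was sequenced in 2 separate studies. In the peptide study, 7 mice were injected daily with human Aβ42, the 42-residue amyloid beta peptide, and 7 with ScrAβ42, a control peptide of scrambled sequence, for 4 weeks from 12 weeks of age. The sample labels give the daily dose as 1 mg, a unit that differs from that in the study's methods. In the antibody study, 8 mice received 3D6, an antibody that neutralises Aβ42, and 8 received a control antibody. Per the study's methods all mice of the antibody study were on a high-fat diet from about 12 weeks of age, with weekly antibody injections, whereas the deposited design text states that these mice were given Aβ42, and these accounts could not be reconciled here. Total counts ran from 4478991 to 6015767 per heart given peptide and from 6397192 to 8310478 per heart given antibody.

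The upper chambers of the heart, the atria, and the lower chambers, the ventricles, use different versions of many contractile and regulatory proteins. Atrial muscle cells build their myosin with the light chains encoded by Myl7 and Myl4, whereas ventricular muscle cells use those encoded by Myl2 and Myl3. In the adult mouse ventricle the atrial light chains are nearly silent, and the transcription factors NR2F2 and TBX5 take part in setting atrial identity. A bulk sample cannot tell apart fewer cells of a type and less RNA per cell.

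The ventricular light chain Myl2 was between 804 and 7134 CPM (the count relative to the TMM-scaled library size) with Aβ42 and between 3684 and 7379 CPM with ScrAβ42. In the antibody study it was between 2613 and 5788 CPM with 3D6 and between 3115 and 7617 CPM with the control antibody. The library labelled Aβ42 heart 5 went against its label as left ventricle, with 804 CPM of Myl2 and 737 CPM of Myl3 against 3043 CPM of Myl7 and 3841 CPM of Myl4. The ventricular factor Irx4 was at 3.30 CPM in that library and at 10.6 to 26.6 CPM in the other 13 peptide hearts. Some libraries stood apart for the atrial genes in each group. In the peptide study these were Aβ42 hearts 1, 3, 5 and 6 and ScrAβ42 heart 6, and in the antibody study 3D6 hearts 1, 4, 5 and 8 and control antibody hearts 1 and 2. Between these and the other hearts Myl7 had its widest gap on the log scale, from 29.8 to 416 CPM with the peptides and from 5.26 to 48.2 CPM with the antibodies. Hearts are numbered within their group in the order of the sample records, and the numbers carry no pairing. The labels do not say more than that these are separate mice.

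Sequences upstream of the start of transcription are shown for 4 of the genes, because Myl7, Myl4 and Mybphl varied together between hearts and Bmp10 did not follow them. They are the 250 bases before the start in RefSeq on GRCm38.p6, printed 5′ to 3′ on the strand of the gene. The window of Myl7 is chr11:5898783-5899032 on the minus strand, that of Myl4 is chr11:104550413-104550662 on the plus strand, that of Mybphl is chr3:108364661-108364910 on the plus strand and that of Bmp10 is chr6:87428744-87428993 on the plus strand. Capitals mark matches to the motifs named in the next paragraph.
Myl7: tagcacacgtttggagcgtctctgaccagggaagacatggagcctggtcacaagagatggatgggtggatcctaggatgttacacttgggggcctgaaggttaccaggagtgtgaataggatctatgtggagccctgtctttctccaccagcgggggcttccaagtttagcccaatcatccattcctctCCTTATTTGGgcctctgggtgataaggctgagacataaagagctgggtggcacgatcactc
Myl4: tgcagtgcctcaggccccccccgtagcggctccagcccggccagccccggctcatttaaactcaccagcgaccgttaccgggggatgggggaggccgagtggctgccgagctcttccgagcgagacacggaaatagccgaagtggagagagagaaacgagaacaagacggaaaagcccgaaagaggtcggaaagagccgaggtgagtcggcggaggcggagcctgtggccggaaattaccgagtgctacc
Mybphl: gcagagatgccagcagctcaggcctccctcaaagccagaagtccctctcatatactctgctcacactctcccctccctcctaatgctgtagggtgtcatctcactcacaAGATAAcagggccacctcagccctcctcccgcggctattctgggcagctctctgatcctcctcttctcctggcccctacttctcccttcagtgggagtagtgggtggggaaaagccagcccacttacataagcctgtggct
Bmp10: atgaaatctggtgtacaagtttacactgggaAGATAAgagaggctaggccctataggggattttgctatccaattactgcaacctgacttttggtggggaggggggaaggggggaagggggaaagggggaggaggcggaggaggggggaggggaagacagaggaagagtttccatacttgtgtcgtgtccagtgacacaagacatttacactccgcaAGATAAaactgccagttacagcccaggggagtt

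Of the 10 genes, 7 had a promoter in the RefSeq table, and Sln, Dkk3 and Tbx5 had none there. Both strands of the 250 bases before the start were searched for 6 motifs. The motif AGATAA is 1 form of the site of GATA factors, and other forms were not searched. The motif AGGTGT is that of T-box factors such as TBX5. The motif TNAAGTG is that of NKX2-5. The motif AGGTCA is a site of nuclear receptors such as NR2F2. The motif TATAAA is the TATA box. The CArG box is that of serum response factor. No match overlapped another. AGATAA was found once in Mybphl and at 2 places in Bmp10, and so in 2 of the 7 member promoters, against 9.99% of all 32851 promoters of the table. The CArG box was found in Myl7 alone of the 7, starting 61 bases before the start, against 1.47% of all promoters. None of the other 4 motifs was found in a member promoter. Myl4, whose level followed that of Myl7 closely, held none of the 6 motifs in this window. The windows were taken by gene name and were not matched to the start of the most counted transcript. These matches are letters in a window and say nothing of binding.

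The myosin regulatory light chain of the atria, Myl7 (ENSMUSG00000020469, chromosome 11, 5896637 to 5898782, minus strand), spread widely over hearts. With Aβ42 the 7 hearts held 416, 3.72, 1146, 3.56, 3043, 1627 and 29.8 CPM. With ScrAβ42 they held 1.67, 2.65, 3.72, 6.47, 0.774, 1498 and 13.2 CPM. Hearts at 416 CPM or more were therefore present in both groups, 4 of 7 with Aβ42 and 1 of 7 with ScrAβ42, and the groups overlapped. The 3D6 hearts of the other study held between 0 and 159.8 CPM with a median of 35.7, and the control antibody hearts between 0 and 931 CPM with a median of 0.376. No 3D6 heart lay above the highest control heart. Myl7 was listed at 0 counts in 3 hearts of the antibody study, where the limit that a count of 0 allows is 3 counts, or between 0.410 and 0.479 CPM in those hearts.

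Myl4 (ENSMUSG00000061086, chromosome 11, 104550663 to 104595753, plus strand), the atrial essential light chain, followed Myl7 heart by heart. It held 529, 6.62, 1661, 7.31, 3841, 1984 and 44.5 CPM with Aβ42, and 1.67, 5.13, 5.03, 4.67, 2.90, 1515 and 13.4 CPM with ScrAβ42. The same 5 hearts were high. Among antibody hearts Myl4 ran from 0.799 to 419 CPM with 3D6 and between 0.821 and 1412 CPM with the control antibody, so that it was counted in all 30 hearts. Mybphl (ENSMUSG00000068745, chromosome 3, 108364911 to 108380057, plus strand), a myosin-binding protein of atrial muscle and the conduction system, ran at a lower level. Its highest value was 474 CPM, in Aβ42 heart 5, and outside the high hearts it stayed from 0.194 to 5.95 CPM in peptide hearts and from 0 to 0.478 CPM in antibody hearts.

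Sln (ENSMUSG00000042045, chromosome 9, 53850164 to 53854560, plus strand) encodes sarcolipin, a small inhibitor of the calcium pump of the sarcoplasmic reticulum. It held 146, 1.86, 499, 0.749, 1047, 535 and 15.5 CPM with Aβ42 and 0, 0.531, 0.874, 0.899, 0.387, 443 and 2.13 CPM with ScrAβ42. Of 16 antibody hearts, 7 had no Sln count, and the highest value was 236 CPM in control antibody heart 2. Dkk3 (ENSMUSG00000030772, chromosome 7, 112116017 to 112159057, minus strand), a secreted protein of the Dickkopf family, had its highest value in the same hearts, 851 CPM in Aβ42 heart 5 and 189.8 CPM in control antibody heart 2. One other heart departed from this order, as ScrAβ42 heart 3 held 30.6 CPM of Dkk3 with 3.72 CPM of Myl7.

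The other 4 genes were counted in every heart, and their ranges below and above the gap in Myl7 overlapped in part. Stard10 (ENSMUSG00000030688, chromosome 7, 101317086 to 101346626, plus strand), a phospholipid transfer protein, was between 12.6 and 23.6 CPM in the 9 peptide hearts below the gap in Myl7, and at 64.0, 202, 398 and 197 CPM in Aβ42 hearts 1, 3, 5 and 6. It was at 179.9 CPM in ScrAβ42 heart 6. Gja5 (ENSMUSG00000057123, chromosome 3, 96904693 to 97077416, plus strand) encodes connexin 40, a gap junction channel of atrial muscle, conduction cells and arterial endothelium. It was between 3.87 and 7.43 CPM in those 9 hearts, and its highest values were 66.4 CPM in Aβ42 heart 5 and 47.2 CPM in Aβ42 heart 6. Tbx5 (ENSMUSG00000018263, chromosome 5, 119832668 to 119885219, plus strand), a T-box factor of the atria and the left ventricle, was at most 34.5 CPM in the 9 hearts and reached 163 CPM in Aβ42 heart 5. Nr2f2 (ENSMUSG00000030551, chromosome 7, 70351944 to 70366735, minus strand), an orphan nuclear receptor of atrial muscle and of venous and lymphatic endothelium, varied least, from 10.5 to 35.3 CPM over all peptide hearts and from 8.95 to 34.6 CPM over all antibody hearts. In the peptide study the ranges of Stard10, Gja5 and Tbx5 did not overlap between hearts below and above the gap, whereas Nr2f2 reached 17.97 CPM below it and started at 16.2 CPM above it. In the antibody study all 4 overlapped. The highest heart below the gap and the lowest above it were at 40.3 and 29.5 CPM for Stard10, 9.69 and 3.78 CPM for Gja5, 39.5 and 25.6 CPM for Tbx5, and 15.8 and 13.9 CPM for Nr2f2. Control antibody heart 2 was the highest antibody heart for each of them, at 238, 47.7, 68.9 and 34.6 CPM.

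**Figure D1:**
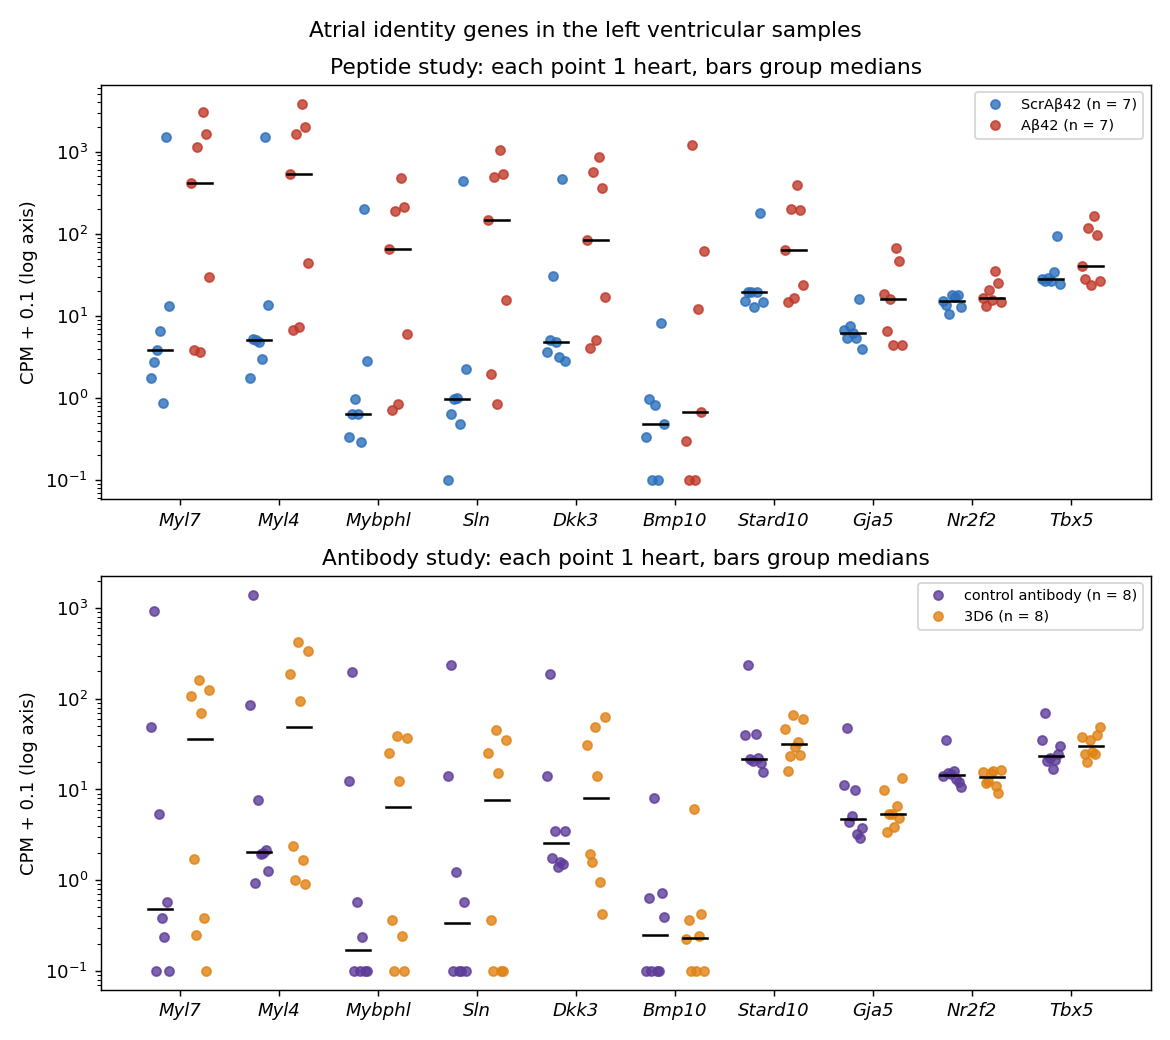
CPM of the 10 atrial genes in each heart, on a log axis after adding 0.1, with 1 point per heart and bars at the group medians, for ScrAβ42 and Aβ42 (above, 7 hearts each) and control antibody and 3D6 (below, 8 hearts each). Myl7 spans 0.774 to 3043 CPM in the peptide study, whereas Nr2f2 spans 10.5 to 35.3 CPM.

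Levels were compared between genes per kilobase of the most counted transcript. At their highest in the peptide study, in CPM per kb, Myl7 was at 5160, Myl4 at 4270, Sln at 795, Mybphl at 371, Stard10 at 284, Bmp10 at 269, Dkk3 at 253, Tbx5 at 41.4, Gja5 at 21.3 and Nr2f2 at 8.36. At the median over the 14 hearts the order was closer, with Myl7 at 16.6, Stard10 at 13.9, Myl4 at 11.5 and Tbx5 at 7.26 CPM per kb. The light chains were thus the highest at the top of the range and of the order of Stard10 at its middle. The highest heart stood 3930 times above the lowest for Myl7, 31.6 times for Stard10, 17.1 times for Gja5, 6.81 times for Tbx5 and 3.37 times for Nr2f2, in CPM in the peptide study. These levels are descriptions, and neighbours in this order overlap over hearts.

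Bmp10 (ENSMUSG00000030046, chromosome 6, 87428994 to 87437677, plus strand), a secreted ligand of the BMP family that the adult mouse heart makes in the right atrium, did not follow the other genes. It held 0.198, 0, 1209, 0, 12.1, 0.580 and 62.5 CPM with Aβ42, and 0.239, 0.884, 0, 0.719, 0, 8.04 and 0.387 CPM with ScrAβ42. Aβ42 heart 3 therefore carried 6330 of its counts, more than its 5998 counts of Myl7. Aβ42 heart 6, with 8419 counts of Myl7, had 3 of Bmp10, and Aβ42 heart 1, with 2108 counts of Myl7, had 1. Aβ42 heart 7 had 315 counts of Bmp10 with 150 of Myl7. Among antibody hearts Bmp10 was counted 50 times in control antibody heart 4, which had 33 counts of Myl7, and 43 times in 3D6 heart 4. The other 14 hearts of the antibody study had at most 4 counts each, control antibody heart 2 with 6909 counts of Myl7 among them.

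Hamp, which encodes the iron hormone hepcidin, was read beside Bmp10. It was counted 197 times in Aβ42 heart 3, 56 times in ScrAβ42 heart 6 and 28 times in Aβ42 heart 5, and at most 8 times in any other peptide heart. Among antibody hearts it was counted 27 times in 3D6 heart 4 and at most 6 times in any other heart, with 1 count in control antibody heart 4, the heart of that study with most Bmp10. The heart with most Bmp10 was thus also that with most Hamp in the peptide study but not in the antibody study. There the counts of Bmp10 were close, 50 in control antibody heart 4 and 43 in 3D6 heart 4.

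**Figure D2:**
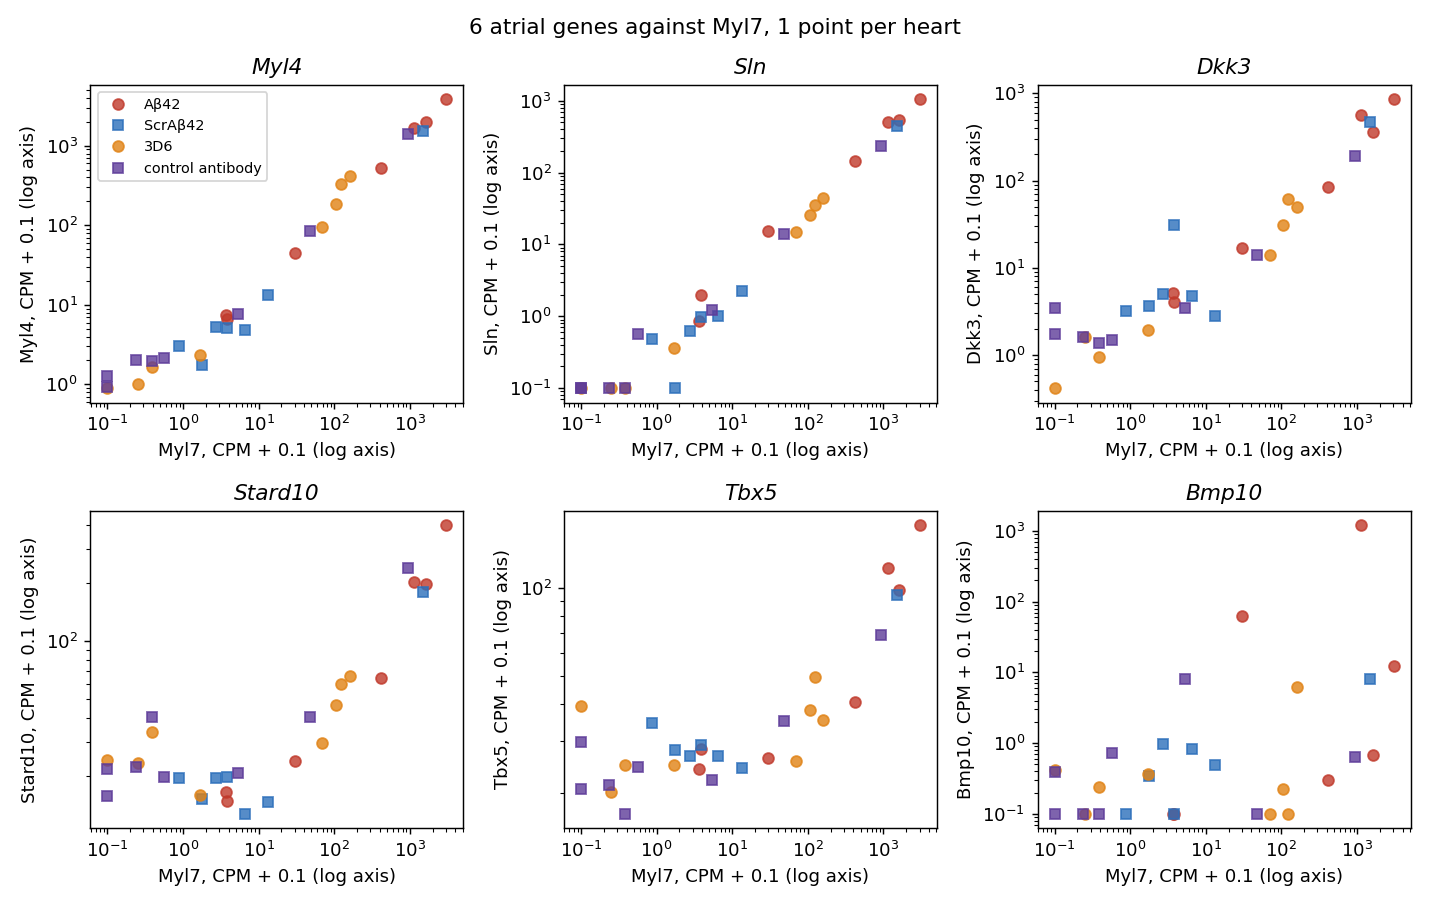
CPM of Myl4, Sln, Dkk3, Stard10, Tbx5 and Bmp10 (vertical axes) against that of Myl7 (horizontal axes), both on log axes after adding 0.1, 1 point per heart, coloured by group. Myl4 and Sln rise along a line with Myl7, Stard10 and Tbx5 are highest at high Myl7 but reach 40.3 and 39.5 CPM in antibody hearts with almost no Myl7, and Bmp10 is highest, at 1209 CPM, in Aβ42 heart 3.

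The hearts below and above the gap in Myl7 had separate ranges for 8 of the 10 genes in the peptide study, Bmp10 and Nr2f2 being the exceptions. In the antibody study they did for 5, Myl7, Myl4, Mybphl, Sln and Dkk3. Myl7 is counted in both studies although the gap was set on it, so that its own ranges are separate by construction. The share of all genes with separate ranges was not counted, so nothing is read from these numbers. Because several genes had such a step, correlations across hearts were taken within each range. Myl7, Myl4, Mybphl and Sln were correlated in both, but below the gap this rested on few counts in both studies. In the 9 peptide hearts below the gap in Myl7 the median of Spearman's rho over their 6 pairs was 0.85 (0.733 to 0.967), in the 10 antibody hearts below the gap it was 0.751 (0.521 to 0.877), and in the 6 antibody hearts above it 0.971 (0.943 to 1.0). Of the 9 peptide hearts below the gap, Mybphl had 3 or fewer counts in 5 and Sln in 3. Of the 10 antibody hearts below the gap, Myl7 had 3 or fewer counts in 8, Sln in 9 and Mybphl in all 10. Sln was at 0 counts in 7 of them, so that 0.751 rests on ranks of counts near 0. The 5 peptide hearts above the gap are too few for such a value. Over all tested members, the median rho was 0.05 in the 9 peptide hearts, 0.113 in the 10 antibody hearts and 0.829 in the 6 antibody hearts. Between Myl7 and Stard10 the rho below the gap was -0.167 in the 9 peptide hearts and -0.117 in the 10 antibody hearts. Pooled over both ranges the median rho was 0.631 over 14 hearts and 0.653 over 16 hearts (median Pearson's r 0.893 and 0.785), values that include the step between the ranges. Without the 2 hearts farthest from the median score, Aβ42 hearts 3 and 5 and, in the antibody study, control antibody heart 2 and 3D6 heart 8, the pooled rho was 0.444 and 0.499. All of these points share library depth and scaling within a heart.

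The proportions between the genes were read in the 12 hearts with at least 100 counts of Myl7. Counts of Myl4 per count of Myl7, not corrected for length, were 1.01 in ScrAβ42 heart 6 and 1.22 to 1.49 in 5 Aβ42 hearts. Among antibody hearts they were 1.36 to 2.71, with 2.62 in 3D6 heart 4 and 2.71 in 3D6 heart 8. The ratio of Sln to Myl7 ran from 0.296 to 0.52 with the peptides and from 0.214 to 0.292 with the antibodies. That of Mybphl was between 0.129 and 0.2 and between 0.175 and 0.298. These 3 ratios differed at most 1.99 times between hearts of 1 study. By contrast, the ratio of Dkk3 differed 2.8 times and 2.52 times, that of Tbx5 16.4 times and 9.84 times, and that of Nr2f2 43.1 times and 7.78 times. The peptide values rested on Aβ42 heart 7, a heart below the gap with 150 counts of Myl7, where the ratio was 0.88 for Tbx5 and 0.5 for Nr2f2. In the 5 peptide hearts above the gap the ratio differed 2.46 times for Dkk3, 1.9 times for Tbx5 and 3.35 times for Nr2f2, against 1.43 for Myl4, 1.29 for Mybphl and 1.47 for Sln. That of Stard10 also differed 1.47 times there, as for Sln, and that of Gja5 4.2 times. In the 6 antibody hearts the ratios of Stard10 and Gja5 differed 3.26 and 7.07 times. The antibody values of Tbx5 and Nr2f2 had their lowest ratio, 0.074 and 0.0372, in control antibody heart 2, and ran from 0.221 to 0.728 and from 0.0933 to 0.289 in the other 5. The tables of the 2 studies were counted and scaled separately, so that a difference in ratio between the studies has no test here.

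**Figure D3:**
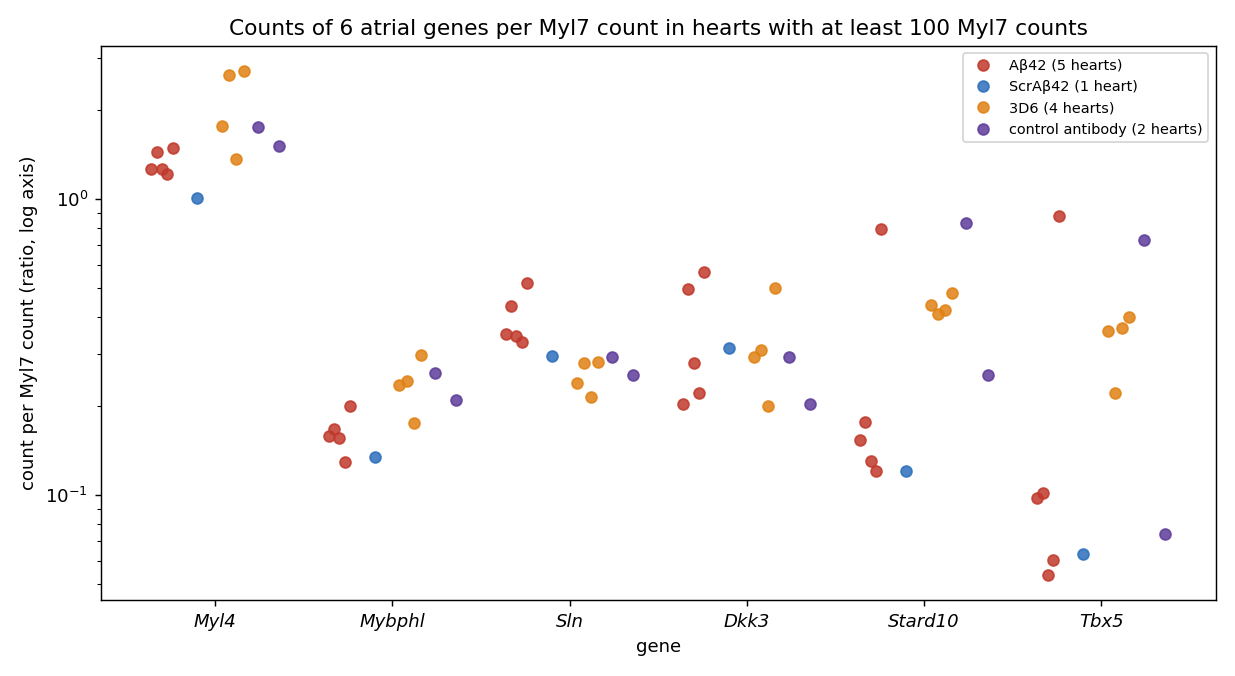
Counts per Myl7 count (log axis) of Myl4, Mybphl, Sln, Dkk3, Stard10 and Tbx5, 1 point per heart, in the 12 hearts with at least 100 Myl7 counts, coloured by group. Myl4 lies between 1.01 and 2.71, and Tbx5 spreads most of the 6, from 0.0536 to 0.88, the highest value being that of Aβ42 heart 7.

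The peptide comparison asked whether giving Aβ42 changes gene expression in the left ventricle. All 10 genes had a higher fitted level with Aβ42, with a median log2 fold change of 1.95 against 0.00154 over all 11985 genes tested. The log2 fold change was 2.04 ± 1.65 (SE) for Myl7, 2.38 ± 1.63 for Myl4, 2.17 ± 1.37 for Mybphl, 2.31 ± 1.55 for Sln and 1.86 ± 1.32 for Dkk3. It was 6.81 ± 1.89 for Bmp10, 1.70 ± 0.817 for Stard10, 1.69 ± 0.587 for Gja5, 0.92 ± 0.466 for Tbx5 and 0.43 ± 0.206 for Nr2f2. The mean level of Myl7 was 896 ± 1139 CPM (SD, n = 7) with Aβ42 and 218 ± 564 CPM (SD, n = 7) with ScrAβ42, and the SD of the Aβ42 hearts was larger than the difference between the means. Of the 7 Aβ42 hearts, 6 lay above the ScrAβ42 median of Myl7 and 2 above the highest ScrAβ42 heart.

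In the edgeR quasi-likelihood fit, adjusted by Benjamini-Hochberg, 0 of 11985 genes had an adjusted p under 0.05, or 0.0%, and none of the 10 was called. At an unadjusted p under 0.05 there were 780 genes, or 6.51% of those tested, and 3.59% were higher with Aβ42. Of the 10 genes, Bmp10 and Gja5 were among these. Bmp10 passed the count filter with 6330 counts in Aβ42 heart 3 and 315 in Aβ42 heart 7, against at most 48 in any ScrAβ42 heart. Its group medians were 0.580 CPM with Aβ42 and 0.387 CPM with ScrAβ42. The 10 genes were chosen on this contrast, so that nothing is read from their count. DESeq2 called 12 genes with an adjusted p under 0.05, 4 higher and 8 lower.

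Without ScrAβ42 heart 6, the 1 high heart of its group, the median log2 fold change of the 10 genes was 6.17, and without Aβ42 heart 5 it was 1.26. Without all 5 hearts above the gap, a choice made after seeing the levels of these genes, it was 0.118 over the 9 that then passed the filter, and 6 of these were higher with Aβ42. The value for Myl7 was then 1.35, for Bmp10 5.63, for Gja5 -0.20 and for Tbx5 -0.11. Those of Bmp10 and Myl7 rested on Aβ42 heart 7. That heart held 62.5 CPM of Bmp10, against at most 0.884 CPM in any other heart left. It held 29.8 CPM of Myl7, against at most 13.2 CPM. The value for Bmp10 was 2.97 without Aβ42 heart 3, and with all hearts 4.13 with DESeq2 and 2.48 with limma-voom.

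The antibody comparison asked whether neutralising Aβ42 changes gene expression in the left ventricle. The fitted level was lower with 3D6 for 8 of the 9 tested genes, with a median log2 fold change of -0.54 against -0.00984 over all 12274 genes tested. It was -1.09 ± 1.43 (SE) for Myl7, -0.54 ± 1.43 for Myl4, -0.88 ± 1.25 for Mybphl, -1.07 ± 1.26 for Sln, -0.43 ± 1.06 for Dkk3, -0.49 ± 0.514 for Stard10, -0.75 ± 0.53 for Gja5 and -0.29 ± 0.207 for Nr2f2. For Tbx5 it was 0.11 ± 0.256. By the same test 0 of 12274 genes had an adjusted p under 0.05, or 0.0%, and 447, or 3.64%, had an unadjusted p under 0.05, of which none was among the 9. Those lower with 3D6 made 2.32% of all genes.

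Medians and means of the hearts went opposite ways here for 7 of the 9 tested genes, whereas both were lower with 3D6 for Nr2f2 and both higher for Tbx5. The median of Myl7 was 35.7 CPM with 3D6 and 0.376 CPM with the control antibody, but the mean was 57.7 ± 65.9 CPM (SD, n = 8) with 3D6 and 123 ± 327 CPM (SD, n = 8) with the control antibody. Of the 8 3D6 hearts, 5 lay above the control median and 0 above the control maximum. Without control antibody heart 2, the highest of the study, the median log2 fold change of the 9 genes turned to 2.40, and 8 of 9 were higher with 3D6. With limma-voom it turned to 0.42, with 7 of 9 higher with 3D6, and with DESeq2 it was -0.29. Without all 6 hearts above the gap it was -0.13 over the 6 genes that passed. The direction in the antibody study therefore rested on 1 heart and on the tool.

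**Figure D4:**
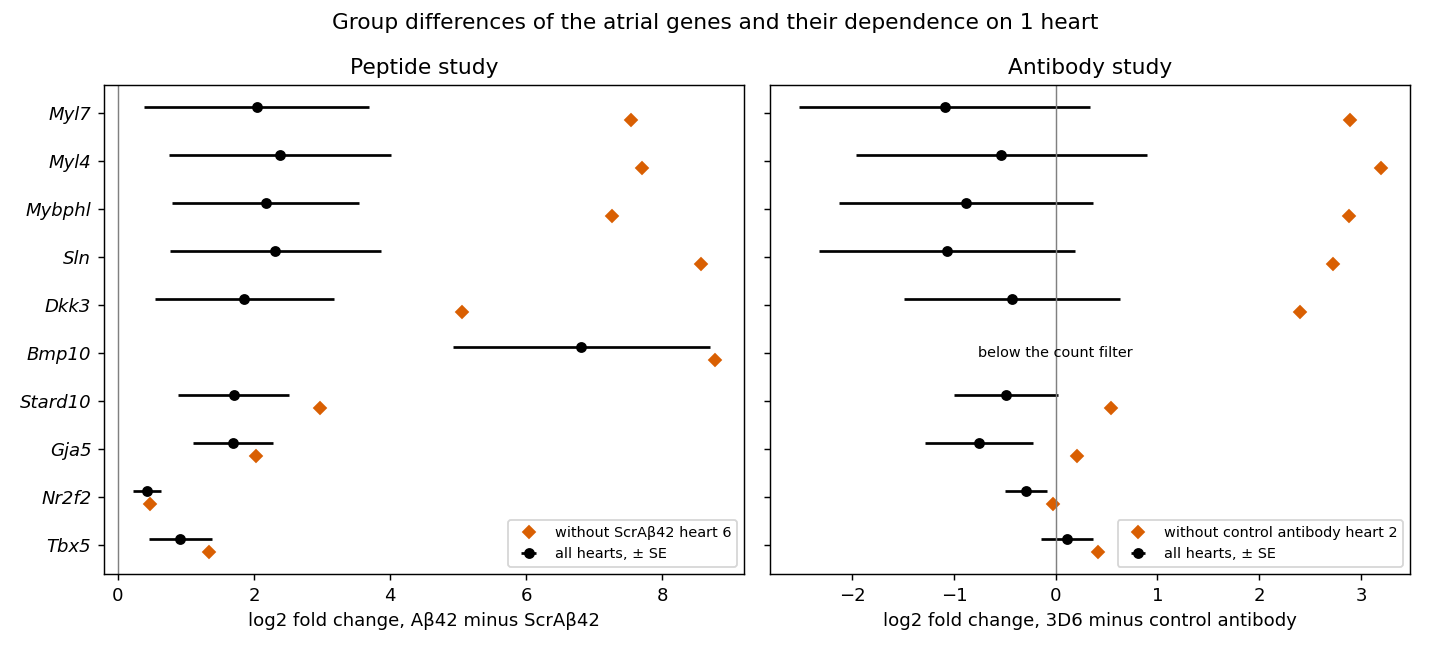
Log2 fold change of each atrial gene (black points, with bars of 1 SE) for Aβ42 minus ScrAβ42 (left) and 3D6 minus control antibody (right), and the same value without the highest control heart (orange diamonds, drawn without error). The median moves from 1.95 to 6.17 on the left and from -0.54 to 2.40 on the right, where Bmp10 was below the count filter.

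Transcripts were counted one by one in the antibody study. For Myl7, Mybphl, Sln, Bmp10 and Dkk3 the table held 1 transcript each. Myl4-202, of 900 bases, took 96.1% of the counts of Myl4, and between 95.3% and 97.0% in the 6 hearts with at least 50 counts. Stard10-201 took 90.9% of the counts of Stard10, between 80.3% and 96.1% over 16 hearts, and Gja5-201 took 99.4% of those of Gja5. Tbx5-201 took 96.2%, between 93.6% and all of the counts. Nr2f2 was split most, with 73.6% on Nr2f2-201 and 20.6% on Nr2f2-202, and the share of Nr2f2-201 ranged from 61.9% to 85.4% over 16 hearts. For Myl4, Stard10, Gja5, Tbx5 and Nr2f2 the level therefore came mainly from 1 transcript in the hearts where the shares could be read. For the genes with 1 listed transcript the share was fixed in advance.

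Other genes are annotated within the bounds of some of the 10. Myl4 has 4 such genes, Gja5 4, Stard10 2, and Mybphl and Nr2f2 1 each, all on the opposite strand but 1 of those in Stard10, and 0 overlap Myl7, Sln, Bmp10, Dkk3 and Tbx5. The library kit keeps the strand, and the strand setting of the counting is not given in the sources used here.

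Of 11 other genes that are higher in atria than in ventricles, 10 were tested in the peptide study and all 10 had a fitted level above that of ScrAβ42. Their median log2 fold change was 0.843, and 0 passed the adjusted threshold. Pam, Sbk2 and Kcnj3 were higher at an unadjusted p under 0.05, as were 3.59% of all genes tested. This list too was chosen with earlier results of these data known, so that nothing is read from that count. Pam, which amidates peptides and sits in atrial granules, was at 2653 ± 2461 CPM (SD, n = 7) with Aβ42 and 1139 ± 980 CPM (SD, n = 7) with ScrAβ42. Sbk2, an atrial kinase gene, had a log2 fold change of 1.84 ± 0.739 (SE), and Kcnj3, a subunit of the acetylcholine-gated potassium channel, of 1.12 ± 0.455. In Aβ42 hearts 2, 4 and 7, below the gap in Myl7, Pam was at 764, 781 and 882 CPM. The ScrAβ42 hearts other than heart 6 held 703 to 904 CPM of Pam. For Sbk2 these values were 8.69, 14.2 and 14.5 CPM against 4.07 to 12.5 CPM. For Kcnj3 they were 43.2, 47.0 and 52.4 CPM against 45.9 to 57.25 CPM. Nppa, the atrial natriuretic peptide gene, was at 617, 1729, 5217 and 2862 CPM in Aβ42 hearts 1, 3, 5 and 6 and at 1264 CPM in ScrAβ42 heart 6, and at most 93.9 CPM in the other 9 peptide hearts. With the antibodies 8 were tested, 6 were lower with 3D6, the median was -0.258 and 0 had an unadjusted p under 0.05.

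Of 11 ventricular genes, 10 were lower with Aβ42 and 1 higher, with a median of -0.187, and Myh7, the slow myosin heavy chain, had an unadjusted p under 0.05 with 469 ± 92.8 CPM against 657 ± 131 CPM (SD, n = 7 each). Their summed level was 3946 CPM in Aβ42 heart 5, the heart with most Myl7, and between 10940 and 18600 CPM in the other 13. In ScrAβ42 heart 6 and Aβ42 hearts 3 and 6 it was 10940, 11560 and 11860 CPM, and in Aβ42 heart 1 17430 CPM. Over the antibody hearts it was between 7472 and 12760 CPM, with 7604 CPM in control antibody heart 2 and 7472 CPM in 3D6 heart 8. The other hearts above the gap in Myl7 were at 9737 CPM (control antibody heart 1) and at 8340, 10070 and 11260 CPM (3D6 hearts 1, 4 and 5). Below the gap, control antibody heart 8 was at 8563 CPM and 3D6 heart 7 at 8945 CPM, so that the ranges overlapped. With 3D6, 6 ventricular genes were higher and 5 lower, with a median of 0.0106.

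Each gene's relatives were read from lists. Among 11 other myosin light chain and myosin-binding protein genes, 9 were tested in each study. With Aβ42, Myl9, the smooth muscle regulatory light chain, was higher and Mybpc2, fast skeletal myosin-binding protein C, lower at an unadjusted p under 0.05. At that threshold 6.51% of all genes tested passed. In all, 4 were higher and 5 lower. Myl9 ran from 24.2 to 390.1 CPM with Aβ42 and from 25.6 to 71.7 CPM with ScrAβ42, with a median of 40.3 CPM over all peptide hearts. Mybpc2 ran from 19.95 to 49.8 CPM with Aβ42 and from 24.4 to 101.3 CPM with ScrAβ42. Cardiac Mybpc3 was at 3011 CPM with Aβ42 and 3803 CPM with ScrAβ42. With 3D6 all 9 had a lower fitted level, with a median of -0.149, and 0 at an unadjusted p under 0.05. Of the calcium pumps and their regulators, 4 of 6 were tested with the peptides and 3 with the antibodies, and 0 had an unadjusted p under 0.05. The log2 fold change of the cardiac pump Atp2a2 was -0.08 and 0.26, and that of its inhibitor Pln, phospholamban, was -0.10 and 0.18.

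Of 13 receptors and response genes of BMP10, 11 were tested in each study and 0 had an unadjusted p under 0.05, with 6 higher and 5 lower with Aβ42 (median 0.0155) and 5 higher and 6 lower with 3D6 (median -0.0735). The log2 fold change with Aβ42 was -0.13 for the type I receptor Bmpr1a, 0.17 for the co-receptor Eng and 0.12 for the type II receptor Bmpr2. Among the Dickkopf relatives and Wnt co-receptors, 4 of 9 were tested, and Kremen1, a receptor of Dickkopf proteins, was lower with Aβ42 at an unadjusted p under 0.05, at 186 ± 36.7 CPM against 221 ± 10.5 CPM (SD, n = 7 each). Dkk1, Dkk2, Dkk4 and Dkkl1 were below the filter in both studies. The related lipid transfer genes Pctp and Stard7 had log2 fold changes of 0.30 and -0.02 with Aβ42. With 3D6, 3 of the 4 Dickkopf and Wnt genes tested were higher (median 0.0384), both lipid transfer genes were higher (median 0.126), and 0 had an unadjusted p under 0.05. Of 4 other connexins, 3 were tested, 1 higher and 2 lower in each study (medians -0.008 and -0.2), and Gja1, connexin 43 of ventricular muscle, had a log2 fold change of -0.01 with Aβ42.

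Of 13 cardiac transcription factors, 11 were tested in each study and 0 had an unadjusted p under 0.05, with 6 higher and 5 lower with Aβ42 (median 0.0008) and 8 higher and 3 lower with 3D6 (median 0.0806). Mef2a, Tbx20, Hand2 and Gata4 had the highest levels with Aβ42, at 177.9, 126, 103 and 100.3 CPM, and their log2 fold changes were -0.02, 0.03, 0.08 and -0.07. Of 9 pacemaker and conduction genes, 8 were tested with Aβ42, where 3 were higher and 5 lower, and Hcn4, the pacemaker channel, and Cacna1g, a T-type calcium channel, were lower at an unadjusted p under 0.05, with log2 fold changes of -0.84 ± 0.356 (SE) and -0.46 ± 0.202. With the antibodies 6 were tested, 3 higher and 3 lower, and 0 had an unadjusted p under 0.05.

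Markers of other cells moved with some of the high hearts. Smooth muscle genes summed to 2016 CPM in Aβ42 heart 5 and to between 80.8 and 342 CPM in the other 13 peptide hearts, and all 4 had a higher fitted level with Aβ42 (median 1.30). Cnn1 of smooth muscle and Ucp1 and Plin1 of fat were higher at an unadjusted p under 0.05, but these rested on few hearts. Cnn1 was at 124.3 CPM in Aβ42 heart 5 and at most 13.2 CPM in any other peptide heart. Ucp1 was at 247.9 and 52.1 CPM in Aβ42 hearts 5 and 1 and at most 1.35 CPM in any other. Plin1 ran from 0 to 84.8 CPM with Aβ42 and from 0 to 9.21 CPM with ScrAβ42. Adipose genes, 5 of 5 higher with Aβ42 (median 2.31), summed to 633 CPM in Aβ42 heart 5, 173.6 CPM in Aβ42 heart 1, 68.2 CPM in Aβ42 heart 3 and 83.9 CPM in ScrAβ42 heart 6, but to 6.57 CPM in Aβ42 heart 6. ScrAβ42 heart 2, with 2.65 CPM of Myl7, had an adipose sum of 78.2 CPM and ScrAβ42 heart 7 one of 17.6 CPM, and the other 7 hearts below the gap had at most 0.874 CPM. Mesothelial genes, 5 of 5 higher with Aβ42 (median 0.786), reached 174.2 CPM with Aβ42 and 79.6 CPM with ScrAβ42. Blood genes, 5 of 5 lower with Aβ42 (median -1.37), had their highest sum in ScrAβ42 heart 6, at 15940 CPM. Skeletal muscle genes were 1 higher and 5 lower (median -0.627), fibroblast genes 3 higher and 2 lower (median 0.0159), arterial endothelial genes 3 and 3 (median 0.0333) and venous and lymphatic endothelial genes 3 and 3 (median -0.0268), of which Flt4 and Nrp2 were lower at an unadjusted p under 0.05. By heart, however, the fibroblast sum was highest in 4 of the 5 hearts above the gap, at 1599 CPM in ScrAβ42 heart 6 and 1437, 1068 and 879 CPM in Aβ42 hearts 5, 3 and 6. It was 674 CPM in Aβ42 heart 1 and between 577 and 842 CPM in the 9 hearts below the gap. The lung markers were below the filter, with a sum of at most 5.81 CPM. Their part in the levels of the atrial genes was not tested.

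In the antibody study the sums of smooth muscle genes were between 106.6 and 243 CPM and those of blood genes between 824 and 2692 CPM, and control antibody heart 2 lay inside both ranges, at 140.5 and 1693 CPM. Its mesothelial sum, 32.4 CPM, was the highest of the study, where the other 15 hearts had 3.83 to 11.4 CPM, and 2 mesothelial genes were tested, both lower with 3D6 (median -0.558), Wt1 at an unadjusted p under 0.05. Adipose and skeletal muscle genes did not pass the filter there, with sums of at most 9.86 and 4.58 CPM. The skeletal muscle maximum was in control antibody heart 2, beside 4.5 CPM in 3D6 heart 4 and 4.13 CPM in control antibody heart 5. The lung markers, also below the filter, summed to 5.66 CPM in control antibody heart 2 and to at most 0.16 CPM in the other 15 antibody hearts. The part of these cells in the levels of the atrial genes was not tested. Endothelial genes were mostly lower with 3D6, 6 of 6 arterial (median -0.295) and 5 of 6 venous and lymphatic (median -0.161), among them Dll4, Nrp2 and Flt4 at an unadjusted p under 0.05. Fibroblast genes were 5 of 5 lower (median -0.122), blood genes 5 of 5 (median -0.087) and smooth muscle genes 3 of 4 (median -0.184). The share of counts from the mitochondrial genome was 12.9% in Aβ42 heart 5 and 13.8% in ScrAβ42 heart 6, and between 17.3% and 22.2% in the other 12 peptide hearts. In the antibody study the 6 high hearts had 30.3% to 35.2%, inside the range of 25.9% to 37.8% of that study.

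**Figure D5:**
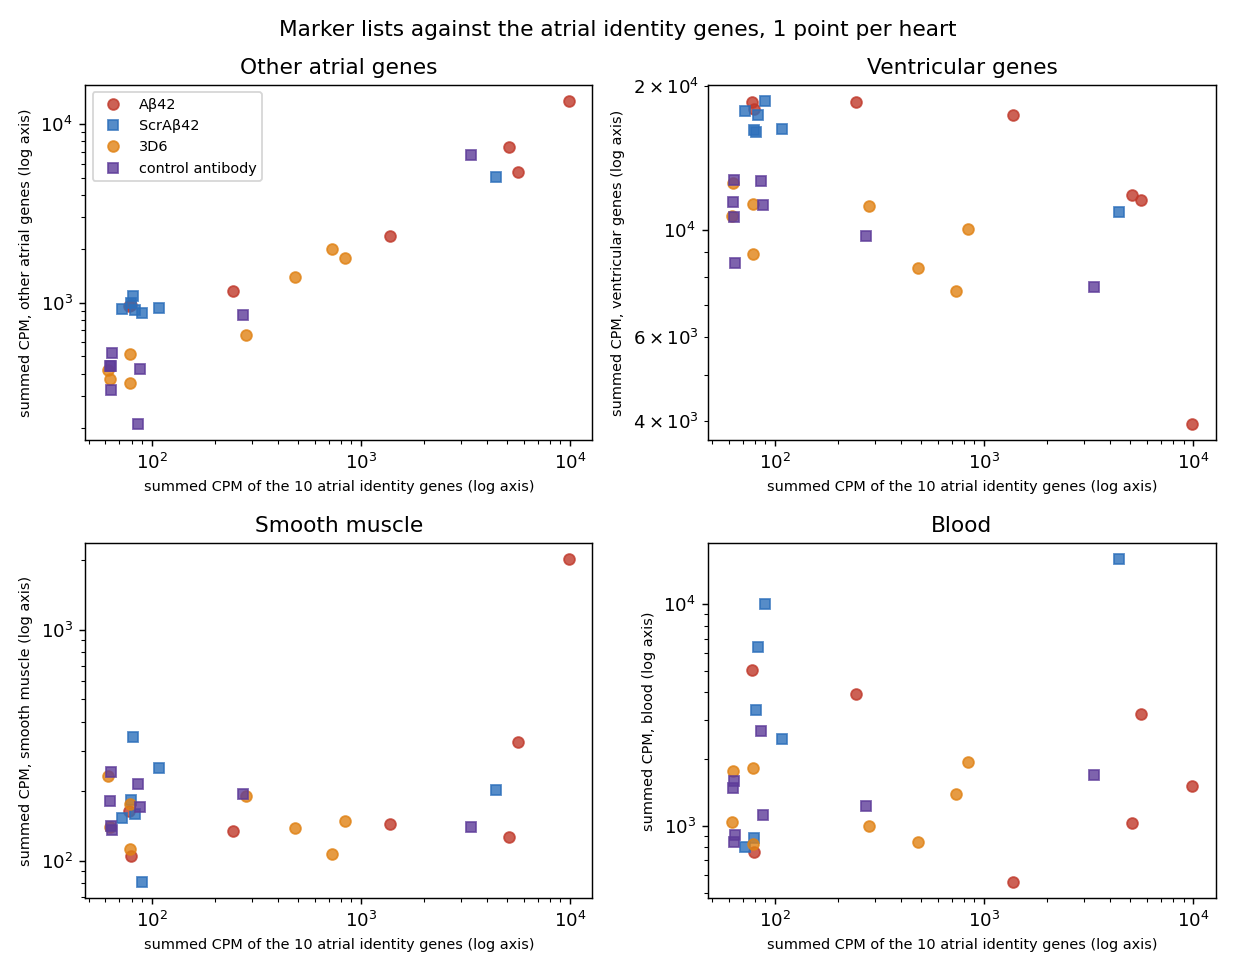
Summed CPM of 4 marker lists (vertical axes) against the summed CPM of the 10 atrial identity genes (horizontal axes), both on log axes, 1 point per heart, coloured by group. Other atrial genes are highest where the 10 genes are, ventricular genes are lowest, at 3946 CPM, in Aβ42 heart 5, and that heart also has the highest smooth muscle sum, 2016 CPM.

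The genes most like the 10 were sought among all genes tested in both studies, by the smaller of their Spearman correlations with the mean standardised level of the members, over 14 and 16 hearts with group means taken out. They were Ppp1r1b (rho 0.904 and 0.927), Tmem163 (0.903 and 0.955), Tbc1d1 (0.925 and 0.894), Podn (0.93 and 0.885), Cilp2 (0.934 and 0.884), Fgf12 (0.906 and 0.878), Rxfp1 (0.877 and 0.893), Camk1d (0.978 and 0.876), Cacna2d2 (0.846 and 0.832) and Gpx3 (0.837 and 0.832). Ppp1r1b encodes the phosphatase inhibitor DARPP-32, Fgf12 an intracellular modulator of sodium channels, Rxfp1 the relaxin receptor, Cacna2d2 a calcium channel subunit and Gpx3 a secreted glutathione peroxidase. Ppp1r1b, Tmem163, Cilp2, Fgf12 and Rxfp1 were listed at 0 in the lowest heart of both studies, like Sln, and had their highest values in the peptide study at 45.3, 84.5, 116, 106 and 31.2 CPM. Gpx3 ran from 173 to 2096 CPM there.

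The 8 genes of the other atrial list tested in both studies differed in this measure. The values were 0.868 and 0.821 for Nppa, 0.881 and 0.735 for Pam, 0.868 and 0.668 for Sbk2, and 0.864 and 0.75 for Nr2f1. They were 0.93 and 0.391 for Kcnj3, 0.793 and 0.459 for Kcnj5, 0.618 and 0.379 for Etv1, and -0.402 and 0.209 for Hey1. The genes most opposed in both studies were mt-Cytb (-0.684 and -0.691), a subunit of complex III encoded by the mitochondrial genome, Asb14 (-0.763 and -0.682), Supt3 (-0.767 and -0.659), Tmem38b (-0.763 and -0.65), an ion channel of the sarcoplasmic reticulum, and Ankrd40 (-0.741 and -0.644). The ventricular light chains Myl2 and Myl3 were at -0.829 and -0.837 with the peptides and at -0.353 and -0.391 with the antibodies. These correlations include the hearts that stand apart, and the points share library depth and scaling.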

How the data were processed

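The authors isolated total RNA of the left ventricle, prepared stranded total RNA libraries and mapped reads with Salmon to the mouse transcripts of GENCODE vM24, and the submitters' processing notes name GRCm38. The values the authors deposited for the peptide hearts were raw read counts by Ensembl gene ID. The values the authors deposited for the antibody hearts were estimated counts from Salmon by Ensembl transcript ID, likewise without normalization. Samples were grouped by their labels, and 1 count column that matched no labelled sample was not used.

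Transcripts were assigned to genes with the GENCODE vM21 gene models, which hold 99.21% of them, and their sums were rounded. The remaining transcripts, with 0.381% of the total, stayed as rows of their own. Positions are 1-based and of GRCm38. Each study was fitted alone, 7 against 7 and 8 against 8 hearts, by edgeR 4.0.16 (R 4.3.3) on genes whose mean count over hearts was 10 or more, with TMM scaling and the two-sided quasi-likelihood test with Benjamini-Hochberg adjustment over all genes tested. Log2 CPM for correlations used a prior count of 2. The fit was tested on simulated data. No heart repeated another of its group within sampling noise (lowest chi-square divided by its degrees of freedom 3.51). Limits from a count of 0 cover counting error only, and depth was similar within each study. Alternatives were DESeq2 1.42.0, limma-voom (limma 3.58.1), other scalings, no filter and leaving out each heart in turn. Leaving out the hearts above the widest gap in Myl7 was added after seeing the data.

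The 10 genes and all gene lists were chosen with earlier results of these data known. Named genes were all 10 members, from each list at most the 4 of highest mean CPM plus any with an unadjusted p under 0.05, and the 10 most like and 5 most opposed by rank correlation. Hamp, named outside this rule, was chosen after its values were seen, and 1 gene of the lists is not reported here.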

Additional observations from a re-analysis of the deposited data

Results flagged for a closer look

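The level of 1 heart stood far from the others of its group for most of the atrial genes. Far means here that its gap to the nearest heart exceeded 95% critical values of Dixon's test, which serve as a cut-off only. These genes were chosen with their levels already known. The usual rate of that test, about 1 in 20 groups, therefore does not apply, and nothing is read from how often the cut-off was passed. In all, 40 combinations of gene and group were looked at, which are not independent of each other.

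ScrAβ42 heart 6 stood apart for 9 of the 10 genes: Myl7 at 1498 CPM (next highest 13.2), Myl4 at 1515, Mybphl at 201, Sln at 443, Bmp10 at 8.04, Dkk3 at 470, Stard10 at 179.9, Gja5 at 15.9 and Tbx5 at 94.5 CPM. Control antibody heart 2 also stood apart for 9 genes: Myl7 at 931 CPM (next highest 48.2), Myl4 at 1412, Mybphl at 195, Sln at 236, Dkk3 at 189.8, Stard10 at 238, Gja5 at 47.7, Nr2f2 at 34.6 and Tbx5 at 68.9 CPM.

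Outside ScrAβ42 heart 6, Bmp10 passed the cut-off in hearts where no other of these genes did. It was at 1209 CPM in Aβ42 heart 3, 7.97 CPM in control antibody heart 4 and 6.05 CPM in 3D6 heart 4. Aβ42 heart 3 and 3D6 heart 4 were nevertheless above the gap in Myl7, with 1146 and 159.8 CPM of Myl7. Control antibody heart 4 was below that gap, with 5.26 CPM. In the Aβ42 group no gene but Bmp10 had a heart this far apart, and 4 of its 7 hearts were high for Myl7.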

How the results depend on the processing

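Called genes (adjusted p under 0.05) numbered 0 in both studies, but 12 with DESeq2 in the peptide study, and between 0 and 3 when each peptide heart was left out, with 3 without Aβ42 heart 2 and 1 without ScrAβ42 heart 6. Genes at an unadjusted p under 0.05 numbered 780 with the peptides and 447 with the antibodies, against 1475 and 1213 with no filter on low counts. They ranged from 609 to 1266 (1266 without ScrAβ42 heart 6) and from 256 (without 3D6 heart 7) to 772 (without control antibody heart 8) when 1 heart was left out, and numbered 280 in the antibody study without the hearts above the gap in Myl7. Scaled to the total count, the antibody study had 91 higher and 438 lower at an unadjusted p under 0.05, against 162 and 285. The median log2 fold change of the members ranged from 1.26 to 6.17 and from -0.94 to 2.40 when each heart was left out, the upper ends without ScrAβ42 heart 6 and without control antibody heart 2. The median rank correlation was 0.893 as Pearson's r in the peptide study and 0.499 without the 2 hearts farthest from the median score in the antibody study, and leaving out each heart gave 0.538 to 0.709 and 0.577 to 0.715. The causes of these changes were not tested. RLE, total-count and nuclear TMM scaling kept the sign of every member in both studies. Members near 0 counts, and Bmp10 in the antibody study, are limited by depth. No paired analysis was possible because replicate numbers follow the order of the records and pair no mice.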
